A study of Mus musculus with 2 samples.

Results

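Vascular smooth muscle cells wrap arteries, arterioles and the larger veins, and by shortening and relaxing they set how much blood reaches the muscle. Here they were taken from the single-cell library of GFP+ cells as barcodes with at least 1500 unique molecular identifiers (UMIs) and under 10% mitochondrial counts that held at least 2 UMIs of Myh11, the smooth muscle myosin heavy chain, at least 8 UMIs of Acta2, Tagln and Myl9 together, and at most 2 UMIs of the endothelial genes Cdh5, Flt1 and Ptprb. The rule found 245 cells among the 25372 barcodes that passed the depth and mitochondrial limits, a share of 0.966% (exact binomial 95% CI 0.849 to 1.09), out of 36400 barcodes in the matrix.

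The library came from the tibialis anterior and gastrocnemius muscles of 2-month-old male S100GFP-tg mice, 7 days after a sciatic nerve crush. The sample label gives them as wild type (WT). In S100GFP-tg mice an S100B promoter drives green fluorescent protein (GFP). Live GFP+ cells were sorted and sequenced from the 3′ end of their transcripts, and a second library held the GFP- cells. The study's methods speak of pooled animals and its series text of a single crushed mouse, so the number of animals is not certain. The GFP- cells' gene counts are not used here, and no uninjured muscle was compared, so no value below measures an effect of the crush or of the sort.

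With 1 library there was no replicate. The values below are UMIs summed over a group of cells and given per 1000000 UMIs (CPM), and every interval is a 95% interval that covers counting error only, not differences between animals. Because the cells were chosen by these counts, the comparisons with other cells of the same library are descriptions and no test was made.

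Smooth muscle contraction starts with calcium, which enters through voltage-gated channels or is released from stores, and activates myosin light chain kinase. Cyclic GMP, made when nitric oxide reaches soluble guanylate cyclase, reverses it. The contractile genes are switched on by serum response factor with its coactivator myocardin at a DNA motif called the CArG box, and Notch signals from the endothelium keep arterial smooth muscle in its mature state. After vessel injury, smooth muscle can lose contractile genes and take up matrix and inflammatory genes, a change known as modulation.

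Most of the 245 cells were shallow, and most also held UMIs of genes that mark macrophages or fibroblasts. Their depth ran from 1507 to 38513 UMIs with a median of 2860, and 64 cells (26.1%, 20.7 to 32.1) reached 5000 UMIs. A cell was called mixed when it held more than 5 UMIs of 6 myeloid genes (Ptprc, Csf1r, C1qa, C1qb, C1qc and Tyrobp) or more than 2 UMIs of the fibroblast receptor gene Pdgfra. By that rule 170 of 245 cells (69.4%, 63.2 to 75.1) and 20 of the 64 deep cells were mixed. The 12 macrophage markers summed to 7586 CPM in all 245 cells, 13034 CPM in the 181 shallow cells and 10649 CPM in the 20 deep mixed cells, against 26163 CPM in the myeloid cells of at least 5000 UMIs. Lysozyme (Lyz2), a macrophage product, stood at 2524 CPM over the 245 cells and was seen in 217 of them. The rule for mixing counts UMIs and not shares, so shallow cells with macrophage or fibroblast counts can pass it. The 31 shallow unmixed cells held 4811 CPM of macrophage markers, with Lyz2 in 29 of them. Their 12 fibroblast markers summed to 17372.5 CPM, against 10449.5 CPM in the 170 mixed cells.

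The 44 cells that were both deep and unmixed (median 10647 UMIs, 484625 UMIs in all) were therefore described beside the whole set, a choice made after the counts had been seen. In them the macrophage markers summed to 169 CPM (82 UMIs, Adgre1 at 0), though 6 of the 12 genes had also set the rule for mixing, so this low sum is no independent check. Satellite cell markers had 178 UMIs (367 CPM, against 105 in deep endothelial cells and 89.7 in deep fibroblasts), of which 138 were Des, a gene smooth muscle also uses, and the 13 of Myod1 lay in a single cell. Neutrophil markers had 0 UMIs over 5 genes, Schwann cell markers 5 UMIs over 10 genes with Sox10 at 0, and endothelial markers 79 UMIs (163 CPM) over 12 genes with Cdh5, Ptprb, Kdr, Tie1, Egfl7 and Cldn5 at 0, against 6022 CPM in 49 deep endothelial cells. Cdh5, Flt1 and Ptprb were capped by the rule for the cells and define the endothelial gate, and Pdgfra was capped by the rule for mixing, so their low counts are no check either. Fibroblast markers summed to 4049 CPM, against 49996 CPM in 1065 deep fibroblasts, with Pdgfra, Lum, Pi16, Dpp4 and Smoc2 at 0. Pdgfra, Dcn, Col1a1 and Col3a1 chose those fibroblasts, and Ptprc, Csf1r and Tyrobp the myeloid cells. The marker sums of both groups are thus high in part by that choice. A single barcode of 29932 UMIs held 383 of the 407 UMIs of Dcn, 267 of Col1a1, all 112 of Thbs4 and 100 of Prg4. Tenocyte markers summed to 714 CPM (346 UMIs), against 128 in deep endothelial cells and 902 in deep fibroblasts, and to 90.2 CPM (41 UMIs) without that barcode. Without it the fibroblast sum was 1993 CPM and Dcn was 52.8 CPM in place of 840. In most of the 245 cells, then, smooth muscle counts sat beside counts of macrophages or fibroblasts, and the part those counts have in each value over all 245 cells was not tested.

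Scrublet, a doublet caller, marked 14 of the 245 cells and 0 of the 20 deep mixed ones, where a preset 13.8% of all 34441 barcodes scored were marked. Because that share was set beforehand, the counts do not measure how many of the cells are doublets. The 2 libraries shared 372 barcodes, of which 4 were among the 245 cells. At the edge of the rule, the 52 cells with exactly 2 Myh11 UMIs had a median of 11 UMIs of Acta2, Tagln and Myl9, and the 70 barcodes left out for having a single Myh11 UMI had a median of 12. Another 224 barcodes met every condition with no Myh11 UMI at all, at a median depth of 9273 UMIs. The 44 deep unmixed cells had a median mitochondrial share of 7.31%, against 3.34% in deep endothelial cells and 2.27% in deep fibroblasts.

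**Figure D1:**
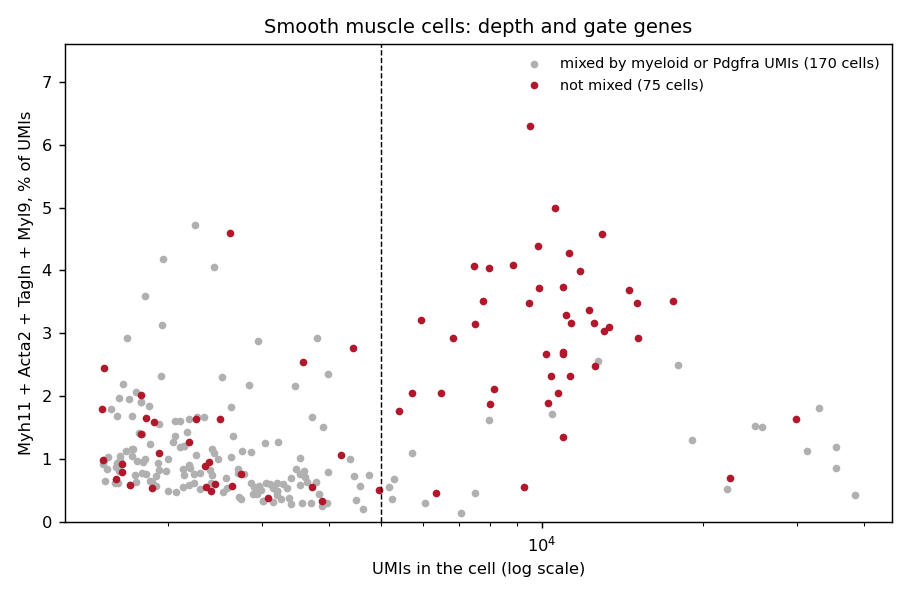
Each point is 1 of the 245 cells, by its UMIs (log scale) and the percent of its UMIs from Myh11, Acta2, Tagln and Myl9, with mixed cells in grey, unmixed cells in red and a dashed line at 5000 UMIs. The red points right of the line have a median of 3.13% of their UMIs in the gate genes, and the 20 grey points right of it lie mostly lower.

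The 4 gate genes chose the cells, so their levels only describe them. Myh11 ranged from 2 to 135 UMIs per cell in the 245 cells with a median of 5, and from 2 to 135 with a median of 29.5 in the 44 deep unmixed cells. There it summed to 3634 CPM (3466 to 3808), beside 11405 CPM of Acta2, 10482 CPM of Tagln and 3793 CPM of Myl9. The gate genes together made up 0.457% of the UMIs of the lowest of the 44 cells, 3.13% of the median cell and 6.29% of the highest.

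Genes of the contractile machinery that the rule had not named were high in these cells. In the 44 deep unmixed cells the 24 genes of the list summed to 27293 CPM, against 2667 CPM in deep endothelial cells, 1564 CPM in deep fibroblasts and 1510 CPM in deep myeloid cells. Over all 245 cells the sum was 17138 CPM, or 2.61 log2 units above all endothelial cells and 3.44 above all fibroblasts. With mitochondrial counts under 5%, which left 101 cells, it was 7920.6 CPM and the log2 ratios were 1.47 and 2.34. Genes were called higher or lower at 2-fold, and only those with at least 50 UMIs over the 2 groups could be called. Each count below is over the list's genes that met this minimum, and each share of all genes is over all those that met it. Of the 23 contractile genes that met it in each comparison, 19 were higher in the 245 cells than in endothelial cells and 22 than in fibroblasts, and 0 were lower in either. Over all genes 13.2% were that much higher than in endothelial cells and 12.5% lower, and 13.6% were higher than in fibroblasts and 17.1% lower. In the 44 deep unmixed cells 20 of 22 and 23 of 23 were higher, where 14.7% of all genes were higher and 21.2% lower than in deep endothelial cells, and 14.1% higher and 27.5% lower than in deep fibroblasts. The median log2 ratio of the list was 3.75 against endothelial cells and 5.33 against fibroblasts, with genes at 0 set to 3 counts, and over all genes it was -0.13 and -0.02.

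Phospholamban (Pln), which holds back the calcium pump of the sarcoplasmic reticulum, stood at 813 CPM (735 to 897) and was seen in 39 of 44 cells, with 1 UMI in the endothelial and 0.339 CPM in the fibroblast cells. Leiomodin (Lmod1), which starts actin filaments, reached 553 CPM in 41 of 44 cells, a log2 ratio of 8.32 (5.83 to 13.63) over endothelial cells, where it also had 1 UMI. Calponin (Cnn1), which binds actin and slows myosin, reached 270 CPM (226 to 321), ranged from 0 to 12 UMIs per cell and was at 0 in endothelial cells, so it was at least 52.1-fold higher counted against 3 UMIs. Tropomyosin 2 (Tpm2) was seen in all 44 cells at 5 to 187 UMIs, for 5355 CPM against 53.6 and 23.4 CPM in the endothelial and fibroblast cells. Myosin light chain kinase (Mylk) was at 1915 CPM against 55.3 and 17.1. Levels in the 44 cells stood above those of the wider sets. Pln was at 424 CPM over all 245 cells and 122 CPM in the 101 cells with mitochondrial counts under 5%, and Cnn1 at 169 and 58.4 CPM.

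The smallest differences from endothelial cells were in genes of focal adhesions, which most cells use. Talin (Tln1) at 345 CPM and vinculin (Vcl) at 471 CPM were 0.71 (0.36 to 1.06) and 0.88 (0.57 to 1.19) log2 units above endothelial cells. Smooth muscle gamma actin (Actg2), found mainly in gut and airway muscle, had 18 UMIs in 4 of 44 cells. Desmin (Des), an intermediate filament, was seen in 22 of 44 cells at up to 14 UMIs.

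After thinning each cell to 1500 UMIs, the median share of the 245 cells with a UMI was 27.1% over the 24 genes, and 44.3% without thinning. Thinned, Cnn1 was seen in 27.3% of the 44 deep unmixed cells (70.5% unthinned), Lmod1 in 56.8% (93.2%) and Pln in 56.8% (88.6%), and all 3 in 0% of the 133 endothelial cells, whose median depth was 3733 UMIs.

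**Figure D2:**
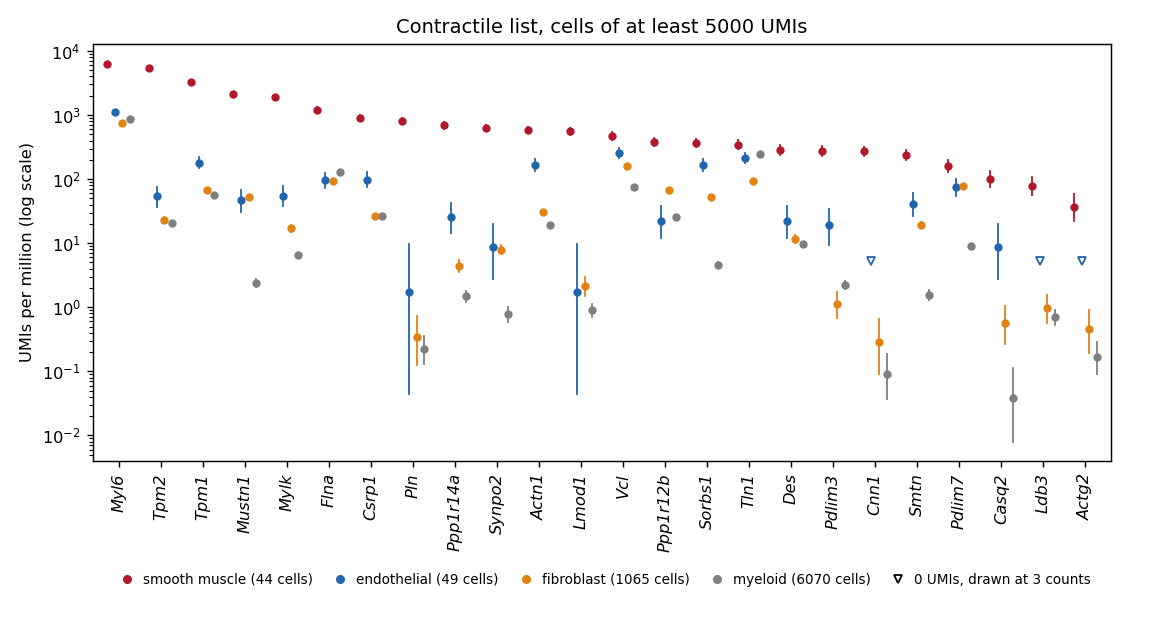
CPM (log scale) of the 24 contractile genes, ordered by their level in the smooth muscle cells, with points for the summed counts of 44 deep unmixed smooth muscle, 49 endothelial, 1065 fibroblast and 6070 myeloid cells of at least 5000 UMIs and bars for the 95% counting interval; open triangles mark 0 UMIs, drawn at 3 counts. The red point is the highest for each of the 24 genes, with Tln1, Vcl and Pdlim7 the nearest to the other cells.

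The CArG box was looked for on both strands of the 250 bases before each start site (RefSeq, GRCm38.p6), since myocardin and serum response factor act there. Of the 4 gate genes and 24 contractile genes, 24 were in the promoter table, and 4 of them (Myl9, Myl6, Vcl and Ldb3) held the box, against 1.62% of the 27025 genes in the table. Of the marker genes, 2 of 7 of muscle fibres held it (28.6%), and 0 of 7 of fibroblasts, 0 of 7 of macrophages and 0 of 8 of endothelial cells. Windows of 50 bases are printed with the box in capitals, 5′ to 3′ on the strand of the gene. The box began at base -161 from the start site for Myl9, -50 for Myl6 and -227 for Vcl, and Ldb3 had the same box at base -109 and at base -35 of its 2 listed starts. A match says only that these letters are there.
Myl9, chr2:156775283-156775332, + strand: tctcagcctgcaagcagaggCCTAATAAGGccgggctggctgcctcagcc
Myl6, chr10:128493030-128493079, - strand: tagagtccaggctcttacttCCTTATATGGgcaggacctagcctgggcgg
Vcl, chr14:20929151-20929200, + strand: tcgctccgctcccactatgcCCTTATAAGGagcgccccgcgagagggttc
Ldb3, chr14:34588687-34588736, - strand: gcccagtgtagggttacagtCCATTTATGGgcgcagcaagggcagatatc
When a single G or C was allowed inside the box, 6 of the 24 genes matched (25%), adding Acta2 and Pdlim3, but so did 7 of 22 marker genes of fibroblasts, macrophages and endothelial cells (31.8%) and 9.78% of all genes, so the looser search did not set the contractile genes apart. It is shown for Acta2, whose window of 80 bases holds 2 such matches, in capitals.
Acta2, chr19:34255388-34255467, - strand: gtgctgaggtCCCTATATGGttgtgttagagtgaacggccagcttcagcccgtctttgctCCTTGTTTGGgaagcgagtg

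Myocardin itself was counted. Myocd had 79 UMIs in 31 of the 44 deep unmixed cells (163 CPM, 129 to 203), and 0 UMIs in the deep endothelial, fibroblast and myeloid cells, so that its level was at least 31.4-fold above endothelial cells and at least 961-fold above fibroblasts, counted against 3 UMIs. Over all 245 cells Myocd was at 89.9 CPM, and at 23.9 CPM in the 101 cells with mitochondrial counts under 5%. Its partner Srf, which most cells use at a low level, had 4 UMIs (8.25 CPM) against 13.8 CPM in endothelial cells, a log2 ratio of -0.74 (-2.93 to 1.16) that was too thinly counted to give a direction. The myocardin-related coactivators Mrtfa and Mrtfb were at 57.8 and 37.1 CPM, the latter lower than the 187 CPM of endothelial cells.

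Of the 22 transcription factors and related regulators, 13 met the minimum against deep endothelial cells, with 7 higher and 1 lower, where 14.7% and 21.2% of all genes were, and 19 met it against deep fibroblasts, with 8 higher and 4 lower, where 14.1% and 27.5% of all genes were. Those higher against both included Foxc1 at 184 CPM against 20.7 and 11.4, a forkhead factor of mural cell development, and Tbx2 at 122 CPM against 6.91 and 3.84. Mef2c, a muscle factor that endothelial cells also use, was at 574 CPM, 0.77 log2 units (0.50 to 1.05) above endothelial cells and 4.05 above fibroblasts. Klf4, which in modulated smooth muscle opposes myocardin, was at 605 CPM, against 705 CPM in endothelial cells (log2 ratio -0.22, -0.44 to -0.00) and 931 CPM in fibroblasts. Tcf21 and Foxf2 had 0 UMIs in the 245 cells, which allows up to 2.31 CPM, and Tbx18 had 5 UMIs in the 44.

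Of the Notch genes, a receptor and several targets were high. Notch3, the receptor by which mural cells receive the signal, stood at 514 CPM (452 to 582) and was seen in 43 of 44 cells at 0 to 16 UMIs, a log2 ratio of 4.63 (3.80 to 5.60) over endothelial cells and 5.30 over fibroblasts. Notch2 was at 144 CPM, and the endothelial receptor Notch1 at 82.5 CPM was lower than the 180 CPM of endothelial cells. Notch4, too thinly counted to be called, was at 4.13 against 38.0 CPM. Jag1, a ligand that smooth muscle passes on to its neighbours, was at 308 CPM against 51.9 and 39.7. Dll4 and Jag2, the ligands of arterial endothelium, were at 0 in the 44 cells and had 26 and 19 UMIs in the 49 endothelial cells.

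The targets were measured too. Heyl at 138 CPM and Nrip2 at 225 CPM were higher than in endothelial cells, by a log2 ratio of 5.32 (3.41 to 8.40) for Heyl and at least 43.4-fold for Nrip2, which had 0 UMIs there. Hey2 was at 66.0 CPM, a log2 ratio of 4.26 (2.28 to 7.36) on 32 and 2 UMIs, under the minimum for a call. Nrarp, a feedback inhibitor, was at 151 CPM against 51.9 in endothelial cells and 0.170 in fibroblasts, and Hes1, which many cells use, at 382 CPM was 0.59 log2 units (0.27 to 0.91) above endothelial cells. Of the 14 Notch genes, 8 met the minimum in each comparison, with 6 higher and 1 lower than in deep endothelial cells and 7 higher and 0 lower than in fibroblasts, beside 14.7% and 21.2%, and 14.1% and 27.5%, of all genes. Over all 245 cells the counts were 5 and 1 of 8, and 8 and 0 of 9, beside 13.2% and 12.5%, and 13.6% and 17.1%.

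Genes that smooth muscle shares with pericytes, the mural cells of capillaries, were described next. Of 12 such genes, 9 of the 11 that met the minimum were higher than in deep endothelial cells and 12 of 12 than in deep fibroblasts, beside 14.7% and 14.1% of all genes. Mcam at 334 CPM, Cspg4 (NG2) at 153 CPM, Pdgfrb at 165 CPM and the guanylate cyclase subunits Gucy1a1 and Gucy1b1 at 768 and 274 CPM were among them. The 9 pericyte markers summed to 597 UMIs (1232 CPM) in the 44 cells, above the 831 CPM of deep endothelial cells and the 814 CPM of deep fibroblasts. Of 8 that met the minimum against fibroblasts 4 were higher and 2 lower (14.1% and 27.5% of all genes), and of 4 against endothelial cells 1 was higher and 0 lower (14.7% and 21.2%). Most of the sum was Rgs5: Kcnj8 had 5 UMIs, Abcc9 had 20, and Rgs5 had 393 UMIs that fell in 13 of the 44 cells, 111 of them in the highest cell.

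The 44 cells were thus split by Rgs5, a regulator of G-protein signalling that is high in pericytes and in some smooth muscle. In the 13 cells with an Rgs5 UMI (112214 UMIs in all) Pln was seen in 8, at 490 CPM (369 to 638), and in the other 31 cells it was seen in all 31, at 910 CPM (816 to 1013). The 5 cells with the highest Rgs5 share, at 32 to 111 Rgs5 UMIs each, had 0 Pln UMIs among 39675 UMIs, while they held 30 UMIs of Notch3 and 2 to 13 of Myh11 each. Notch3 was higher with Rgs5, at 749 CPM (597 to 927) against 443 (378 to 516), and so were Pdgfrb at 294 (202 to 413) against 126 (92.7 to 168) and Abcc9 at 143 (81.5 to 232) against 10.7 (2.93 to 27.5), although 16 of the 20 Abcc9 UMIs lay in 3 cells, with 55% in the highest.

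Other contractile genes went both ways with Rgs5. Myh11 was at 2780 CPM (2480 to 3107) with Rgs5 and 3891 CPM (3693 to 4097) without, and Acta2 at 8457 against 12293, but both are gate genes that chose the cells. Cnn1 was at 169 (102 to 264) against 301 (248 to 362) and Lmod1 at 410 (300 to 547) against 596 (520 to 680), with intervals that overlapped. Des went the other way, at 499 CPM (377 to 648) with Rgs5 and 220 (175 to 273) without. Myocd did not differ beyond counting error, at 143 (81.5 to 232) and 169 (130 to 216). Cspg4, which is often used to mark pericytes, was lower with Rgs5, at 44.6 CPM (14.5 to 104) against 185 (144 to 235), but over all 245 cells at 49.9 (26.6 to 85.3) against 94.2 (76.5 to 115), with intervals that overlapped. Elastin (Eln) was lower with Rgs5 at 178 (109 to 275) against 491 (423 to 568), and Mgp, an inhibitor of vessel calcification, at 214 (137 to 318) against 3233 (3053 to 3421), where 544 of the 1228 Mgp UMIs lay in a single cell and 19 of the 44 cells had any. Among all 245 cells the same split gave 37 cells with Rgs5 and 208 without, with Pln at 269 (209 to 339) against 462 (422 to 506), Notch3 at 618 (526 to 721) against 290 (259 to 325), Des at 284 (223 to 357) against 178 (153 to 205), and Lmod1 at 319 (254 to 395) against 340 (306 to 378), which differed by less than counting error. Rgs5 chose these cells, and cells that hold Rgs5 because they lie with or near a pericyte were not told apart from cells that make it.

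**Figure D3:**
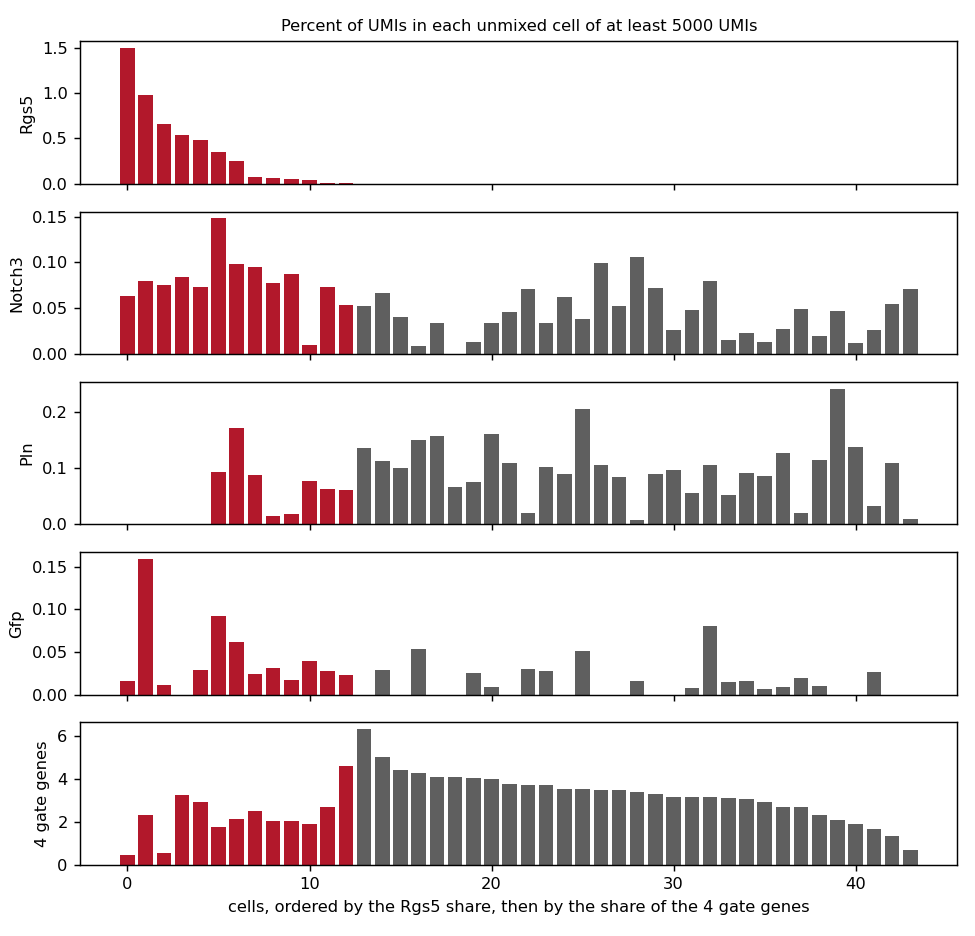
Bars give, for each of the 44 deep unmixed cells, the percent of its UMIs from Rgs5, Notch3, Pln, Gfp and, in the last panel, the 4 gate genes together; cells are ordered by Rgs5 share and then by gate-gene share, with the 13 cells that hold Rgs5 in red. The 5 leftmost cells have no Pln bar, and each of the 31 grey cells has one.

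A gate of 31 pericytes (at least 4 UMIs of Kcnj8, Abcc9, Rgs5 and Higd1b over at least 2 of the 4 genes, at most 2 endothelial UMIs and no Myh11) could be set beside the 245 cells only with care, because its fibroblast markers summed to 37658 CPM, against 8474 in the 245 cells. Of the contractile genes 20 of 23 were higher in the 245 cells and 0 lower, where 18.4% of all genes were higher and 6.54% lower. Pln, Cnn1 and Ldb3 had 0 UMIs among the 130437 of the pericyte gate, which allows up to 23 CPM, and Mylk was at 99.7 CPM against 1207. Shared mural genes split, with 4 of 12 higher and 2 lower. Rgs5 is 1 of the 12 and had also chosen the pericyte gate, so its ratio only describes that choice. Among genes with a UMI in both groups, Sorbs2, Itga8 and Sox6 were among the highest against pericytes, at 722, 232 and 205 CPM against 7.67 CPM each, which is 1 UMI. Inmt, Clec3b and Ltbp4, which had 114, 1304 and 350 CPM in deep fibroblasts, were among the lowest. The 6 cells of the pericyte gate with at least 5000 UMIs held 67896 CPM of fibroblast markers, above the 49996 CPM of deep fibroblasts, and 2479 CPM of pericyte markers, so the 44 cells were not set against them.

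Receptors for signals that constrict or dilate vessels fell into 2 sets. Ramp1, the partner of the receptor for the sensory nerve peptide CGRP, was seen in 40 of 44 cells at 345 CPM (294 to 401), and Npy1r, the receptor for neuropeptide Y of sympathetic nerves, in 39 of 44 at 283 CPM (237 to 334) and 0 to 9 UMIs per cell. Over all 245 cells Npy1r was at 165 CPM, and at 84.9 CPM with mitochondrial counts under 5%. Adra1a, an α1-adrenergic receptor, was at 237 CPM (196 to 285) but more uneven, with 0 UMIs in 22 of the 44 cells and 24 in the highest, and 56.5% of its UMIs in 3 cells. S1pr3, for sphingosine 1-phosphate, was at 264 CPM in 25 cells, and Ednra, for endothelin 1, at 155 CPM in 34. These 5 were higher than in endothelial cells by log2 ratios of 6.05 (4.48 to 8.35) for Ramp1, 5.77 (4.19 to 8.06) for Npy1r, 4.67 (3.51 to 6.14) for S1pr3 and 4.16 (2.88 to 5.83) for Ednra, and at least 45.8-fold for Adra1a, which had 0 endothelial UMIs.

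The remaining 19 receptor genes were at or under 43.3 CPM. Adra1d, Htr2b and P2ry6 had 0 UMIs, which allows up to 6.19 CPM, and Agtr1a, the angiotensin II receptor, had 1 UMI in the 44 cells and 6 in the 245, below the 29.6 CPM of fibroblasts. Adra1b, Adra2a and Adra2b had 1 to 2 UMIs each. Calcrl, the signalling chain that Ramp1 accompanies, had 21 UMIs (43.3 CPM) and was higher in endothelial cells at 322 CPM, and Ednrb, the endothelin receptor of endothelium, was at 28.9 against 119 CPM. Avpr1a, for vasopressin, had 20 UMIs in 6 cells, 55% of them in the highest cell. Of the 24 genes, 7 met the minimum against deep endothelial cells, with 5 higher and 2 lower (14.7% and 21.2% of all genes), and 16 met it against deep fibroblasts, with 8 higher and 5 lower (14.1% and 27.5% of all genes).

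Thinned to 1500 UMIs, Npy1r was seen in 36.4% of the 44 cells (88.6% unthinned), Ramp1 in 38.6% (90.9%) and Adra1a in 25% (50%), against 0%, 0.752% and 0% of the 133 endothelial cells.

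**Figure D4:**
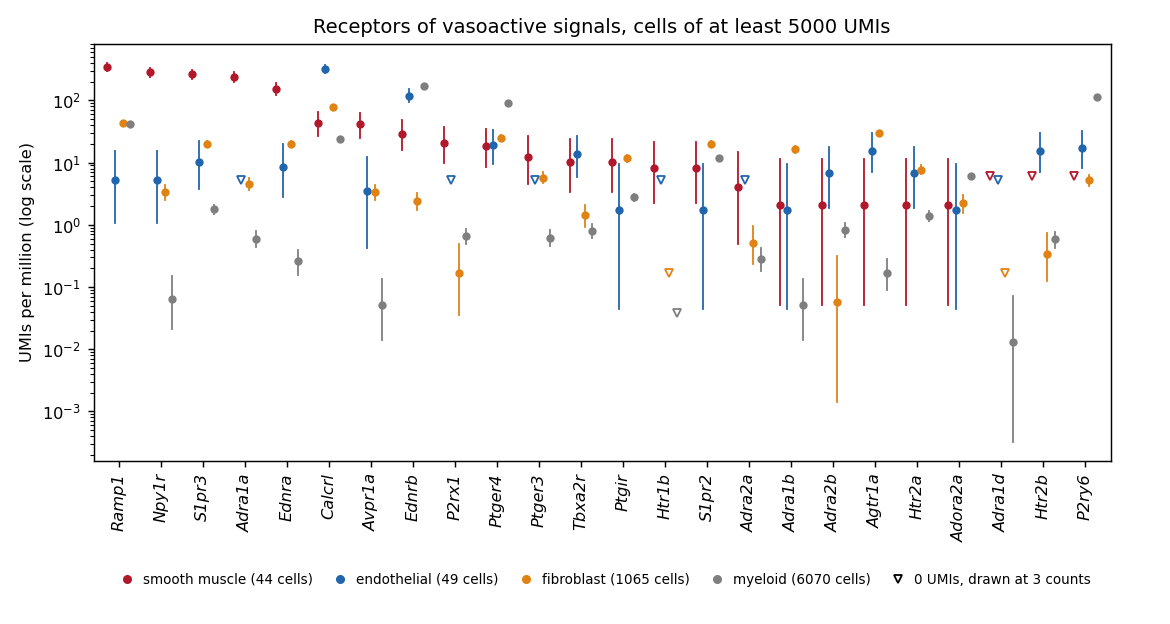
CPM (log scale) of 24 receptor genes in the same 4 groups of cells of at least 5000 UMIs, ordered by the level in the smooth muscle cells, with 95% counting intervals and open triangles for 0 UMIs drawn at 3 counts. Ramp1, Npy1r, S1pr3, Adra1a and Ednra stand above the other groups in the smooth muscle cells, and the rest lie at or under 43.3 CPM there.

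Genes of calcium entry and of relaxation were both high. The L-type channel pore Cacna1c was at 547 CPM (483 to 617), its subunit Cacnb2 at 693 (621 to 772) and the release channel Ryr2 at 180 (144 to 221), with Ryr2 at 0 UMIs in deep endothelial cells and 1.24 CPM in fibroblasts. Itpr1, the other main release channel, was at 398 CPM and differed from endothelial cells at 337 CPM by less than counting error (log2 ratio 0.24, -0.05 to 0.54). The pump Atp2a2 was at 704 CPM. The large-conductance potassium channel Kcnma1 and its smooth muscle subunit Kcnmb1, which dampen contraction, had 188 and 30 UMIs (388 and 61.9 CPM), each at 0 UMIs in endothelial cells, and Kcnmb1 was too thinly counted to be called. Ano1, a calcium-activated chloride channel, was at 142 CPM against 8.64, and Trpc6 was at 59.8 CPM, on 29 UMIs, against 0 UMIs. Piezo1, the stretch channel of endothelium, was lower at 14.4 against 118 CPM.

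For relaxation, the cyclic GMP-dependent kinase Prkg1 was at 1948 CPM (1826 to 2076), its substrate Mrvi1 (also called Irag1) at 289 CPM, and the phosphodiesterases Pde3a and Pde5a at 902 and 206 CPM. These were 2.89 (2.64 to 3.15), 4.58 (3.50 to 5.92), 5.44 (4.62 to 6.41) and 5.90 (4.01 to 8.96) log2 units above endothelial cells. Of the 24 genes of the list, 16 met the minimum against deep endothelial cells, with 13 higher and 1 lower, and 20 against fibroblasts, with 16 higher and 1 lower, where 14.7% and 21.2%, and 14.1% and 27.5%, of all genes were. Among all 245 cells 12 of 18 were higher and 2 lower, and 17 and 0 of 21, with 13.2% and 12.5%, and 13.6% and 17.1%, over all genes.

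Of the gap junction genes, by which these cells couple to each other and to endothelium, Gjc1 (connexin 45) was at 215 CPM in 36 of 44 cells and Gja4 (connexin 37) at 99.1 CPM in 22. Gja1 (connexin 43) had 8 UMIs in 2 cells, 16.5 CPM against 218 in endothelial cells and 253 in fibroblasts, and Gja5 (connexin 40) had 0. Over the 245 cells Gja1 was at 52.3 CPM.

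Among adhesion genes, dystrophin and integrin α8 were well above their levels in endothelial cells. Dystrophin (Dmd) was at 1760 CPM (1644 to 1882) in 43 of 44 cells, 5.35 (4.78 to 5.98) log2 units above, and at 1062 CPM over all 245 cells and 634 CPM with mitochondrial counts under 5%. Integrin α8 (Itga8) was at 442 CPM, 7.00 (5.13 to 10.05) log2 units above. Dtna, which binds dystrophin, at 76.4 against 17.3 CPM and the laminin receptor chain Itga7 at 90.8 CPM, a log2 ratio of 3.39 (2.06 to 5.09), fell short of the minimum for a call against endothelial cells. Itga8 was at 232 CPM over all 245 cells and 69.0 CPM with mitochondrial counts under 5%. Integrin α5 (Itga5), the fibronectin receptor chain, was lower than in both other cell types, at 22.7 against 70.9 and 94.6 CPM. Of the 15 genes, 8 met the minimum against deep endothelial cells, with 3 higher and 1 lower (14.7% and 21.2% of all genes), and 12 met it against deep fibroblasts, with 6 higher and 3 lower (14.1% and 27.5%).

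Basement membrane genes were mixed in direction. The laminin chains Lama5 at 155 CPM and Lamb2 at 244 CPM and the collagen chain Col4a5 at 107 CPM were higher than in endothelial cells at 25.9, 74.3 and 25.9 CPM, whereas Col4a1 at 380 CPM, Hspg2 (perlecan) at 94.9 and Nid1 at 37.1 were lower than the endothelial 1092, 322 and 232 CPM. Lamb1 had 1 UMI in the 44 cells against 119 and 207 CPM in endothelial cells and fibroblasts, and Lama2 was at 51.6 CPM, 60% of it in a single cell. Of the 17 genes, 3 of the 13 that met the minimum were higher and 8 lower than in deep endothelial cells, and 3 of 15 were higher and 8 lower than in fibroblasts, beside 14.7% higher and 21.2% lower, and 14.1% and 27.5%, over all genes.

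Elastic fibre genes were low beside fibroblasts. Of 16 genes, which all met the minimum, 0 were higher and 13 lower than in deep fibroblasts, where 14.1% of all genes were higher and 27.5% lower, with a list median of -3.17 log2 units. Over all 245 cells the counts were 0 and 12, beside 13.6% and 17.1% of all genes. Against deep endothelial cells 10 met the minimum, with 1 higher and 6 lower (list median -1.71, with 14.7% and 21.2% of all genes). Over all 245 cells 14 met it against endothelial cells, with 2 higher and 3 lower (list median 0.03, with 13.2% and 12.5% of all genes). Elastin itself was called in neither comparison of the 44 cells, at 419 CPM (363 to 481) against 300 in fibroblasts and 398 in endothelial cells, log2 ratios of 0.48 (0.27 to 0.69) and 0.08 (-0.20 to 0.35). Over all 245 cells Eln was at 249 CPM and both ratios turned, to -0.28 (-0.44 to -0.12) and -0.26 (-0.51 to -0.02). It was uneven, with a median of 2 UMIs per cell, a highest of 49 and a UMI in 26 of the 44 cells. Fibrillin 1 (Fbn1) at 70.2 against 1734 CPM, Mfap5 at 24.8 against 1475 and Fbln2 at 2.06 against 618 were low.

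Genes linked to modulated smooth muscle were mostly lower than in fibroblasts in the 44 cells. Dcn, Col1a1 and Col3a1 of this list had also chosen the fibroblasts, so their ratios to fibroblasts only describe that choice. Of 21 genes, 20 met the minimum against deep fibroblasts, with 0 higher and 16 lower in the 44 cells (list median -2.44, with 14.1% of all genes higher and 27.5% lower), and 13 met it against deep endothelial cells, with 2 higher and 8 lower (14.7% and 21.2% of all genes). The higher pair were Thbs1, a matrix protein that activates TGF-β, at 398 CPM against 15.6, and Mgp. Without the single cell that held most Mgp, Mgp was at 1444 CPM against 1087 CPM in endothelial cells, a log2 ratio of 0.41 (0.25 to 0.57), and was no longer called. Lum and Mmp3 had 0 UMIs in the 44 cells, Ly6a had 4 UMIs (8.25 CPM, against 655 in endothelial cells and 1293 in fibroblasts), Vcan 1, Timp1 4, and Lgals3 22. Fn1 was at 132 CPM against 631 and 2464. Over all 245 cells the list read differently, with 6 of 18 higher and 2 lower than in endothelial cells (13.2% and 12.5% of all genes) and 2 of 20 higher and 11 lower than in fibroblasts (13.6% and 17.1%). Lgals3 and Cd68, which macrophages also express, stood at 411 and 150 CPM there and at 45.4 and 4.13 CPM in the 44 cells. In the same cells the macrophage markers summed to 7586 and 169 CPM. The 44 cells had been chosen without those that held more than 5 UMIs of the 6 myeloid genes or more than 2 of Pdgfra, so their low counts of such genes are in part set by that choice. No mixed cells were left out of the other groups, and the deep endothelial cells held 12121 CPM of fibroblast markers and 1543 CPM of macrophage markers, against 4049 and 169 in the 44 cells. The part of those counts in the elastic fibre, basement membrane and modulated ratios was not tested.

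**Figure D5:**
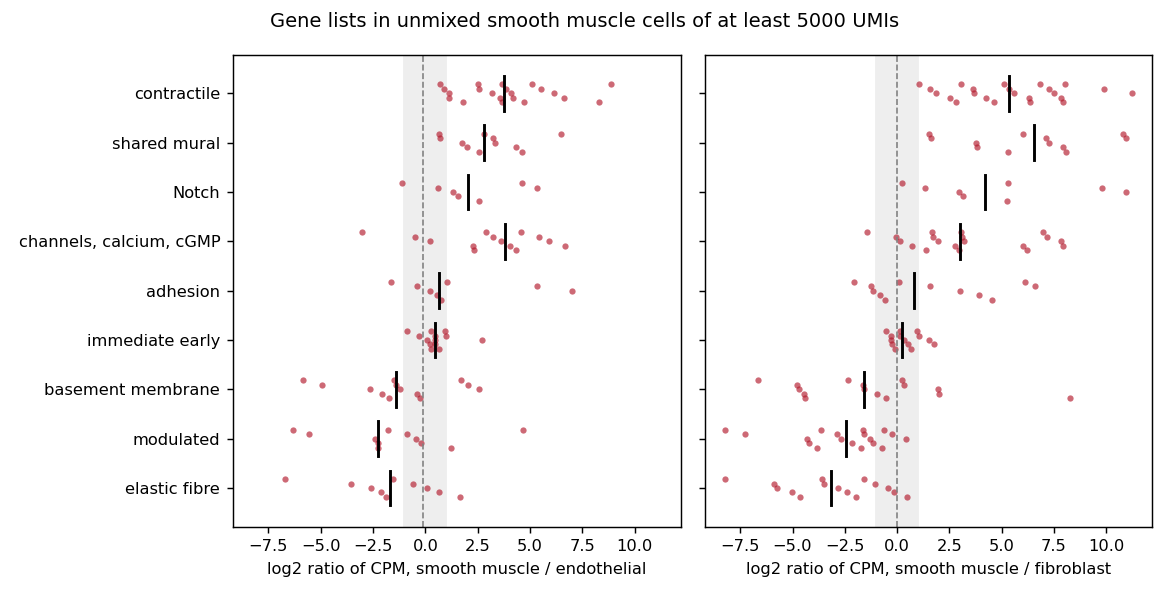
Each point is a gene of the named list, by its log2 ratio of CPM in the 44 deep unmixed smooth muscle cells to that in deep endothelial cells (left) or deep fibroblasts (right), for genes with at least 50 UMIs over both groups and a UMI in each. Black bars are list medians with genes at 0 set to 3 counts, the dashed line is the median of all genes and the grey band is the range under 2-fold; the contractile list lies to the right on both sides and the elastic fibre and modulated lists to the left.

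Of 30 secreted factors, 10 met the minimum against deep endothelial cells, with 3 higher and 4 lower, and 25 met it against deep fibroblasts, with 6 higher and 13 lower, beside 14.7% and 21.2%, and 14.1% and 27.5%, of all genes. Pdgfa, a growth factor for fibroblasts and glial precursors, was at 283 CPM in 40 of 44 cells against 48.4 and 9.27 CPM, and at 161 CPM over all 245 cells and 71.6 CPM with mitochondrial counts under 5%. Tgfb3 was at 114 CPM against 12.1 and 43.5, and Pgf, a relative of VEGF, at 66.0 CPM against 1 UMI and 8.42 CPM, too thinly counted to be called against endothelial cells. Igfbp7 was seen in all 44 cells at 13 to 154 UMIs and 3871 CPM, and in endothelial cells at 3082. Ntf3, a neurotrophin, had 26 UMIs in 17 of 44 cells (53.7 CPM, against 20.7 and 46.4), with at most 3 UMIs in any cell. Gdnf and Artn had 2 UMIs each, and the 5 UMIs of Bdnf lay in a single cell. Cxcl12 at 72.2 CPM was lower than the 1136 CPM of endothelial cells, and Ccl2 at 43.3 CPM stood at 633 CPM over all 245 cells.

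Immediate early genes, which tissue digestion can switch on, were well counted in each of the cell groups. They summed to 15662 CPM in the 44 cells, 10832 in deep endothelial cells, 12322 in deep fibroblasts and 10980 in deep myeloid cells, with Fos at 0 to 142 UMIs per cell. Of 14 genes, 1 of the 13 that met the minimum was higher than in endothelial cells and 3 of 14 than in fibroblasts (14.7% and 14.1% of all genes), and Nr4a1 at 1356 CPM against 206 and 394 was the highest in ratio. Cell cycle genes had 38 UMIs in the 44 cells, 35 of them of Pcna, with 0 of Mki67, Cdk1, Ccnb1, Ccna2, Mcm2 and Birc5. Over the 245 cells Mki67 had 29 UMIs in 20 cells, and the 10 genes summed to 152 CPM there and 78.4 CPM in the 44, against 164 CPM in deep endothelial cells, 108 in deep fibroblasts and 307 in deep myeloid cells.

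The reporter was counted in part of the sorted cells. Gfp had 97 UMIs in 29 of the 44 deep unmixed cells (200 CPM, 162 to 244) at 0 to 18 UMIs per cell, against 67.4 CPM in deep endothelial cells, 117 in deep fibroblasts and 457 in deep myeloid cells. Over the 245 cells it was at 218 CPM in 123 cells. It was higher in the 13 cells with Rgs5, at 428 CPM (315 to 567), than in the other 31, at 132 (97.3 to 174). S100b, whose promoter drives the reporter, had 2 UMIs in the 44 cells and 7 in the 245. Among the other S100 genes, S100a11 at 761 CPM and S100a6 at 1781 CPM were well counted, and S100a10 at 64.0 CPM was lower than the 901 CPM of endothelial cells (log2 ratio -3.82, -4.39 to -3.29).

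Of the osteopontin (Spp1) genes, the ligand had 2 UMIs in the 44 cells and 55 UMIs in 16 of the 245 cells. Of its receptors, Cd44 had 8 UMIs (16.5 CPM, against 204 and 245 CPM in endothelial cells and fibroblasts) and was at 248 CPM over all 245 cells, Itgav was at 84.6 CPM, Itgb3 at 8.25 and Itgb5 at 103. Integrin β1 (Itgb1), which pairs with many chains, was at 1001 CPM in all 44 cells, 1.03 log2 units (0.82 to 1.25) above endothelial cells. Without the cell that held most of its UMIs the log2 ratio was 0.97 (0.75 to 1.18), under 2-fold.

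Outside the lists, the 10 genes highest against all other barcodes were Susd5, Gm13861, Olfr558, Sncg, Cabp1, Ctnna3, Slc6a17, Sorbs2, Map3k7cl and Gm13889. In the 44 cells Ctnna3, an α-catenin of cell contacts, was at 1123 CPM in 42 cells, against 19.0 CPM in endothelial and 3.90 in fibroblast cells. Sncg (γ-synuclein) was at 902 CPM in 41 cells, Sorbs2, an adaptor of actin and adhesions, at 1118 CPM in 41, and the unnamed gene Gm13889 at 1281 CPM in 43. Olfr558, an odorant receptor gene, had 146 UMIs in 34 of 44 cells (301 CPM, 254 to 354), 3 UMIs in deep endothelial cells and 0.170 CPM in fibroblasts.

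Over the 44 cells, Spearman's rho with the share of gate genes was 0.84 for Tpm2, 0.58 for Cnn1, 0.39 for Mylk, 0.32 for Pln and 0.29 for Lmod1. It was -0.08 for Synpo2, -0.16 for Des, -0.23 for Notch3 and -0.47 for Rgs5. These describe cells of 1 library that also differ in depth. Genes whose counts varied most over the cells, beyond depth, were Mgp, Col3a1, Gm42418, Dcn and Rgs5, and for Dcn 94.1% and for Col3a1 68.1% of the UMIs lay in the highest cell.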

How the data were processed

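For GFP+ cells the authors deposited a matrix of unnormalised UMI counts, genes by barcodes, from Cell Ranger (8.0.1 per the file header, 7.1.0 per the labels) with an EGFP sequence added and barcodes already filtered. The genome build was mm10 per the labels, and the methods name GRCm38 and GRCm39. No cell annotation was used. Per the labels, Seurat 4.30 was the later tool of the authors.

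From these counts, barcodes with at least 1500 UMIs and under 10% mitochondrial counts were kept and gated on raw UMIs. Endothelial cells had at least 4 UMIs of Cdh5, Flt1 and Ptprb over at least 2 genes and at most 1 of Myh11. Fibroblasts had at least 2 UMIs of Pdgfra and 8 of Col1a1, Col3a1 and Dcn, with no Myh11 or Ptprc and at most 2 endothelial UMIs. Myeloid cells had at least 6 UMIs of Ptprc, Csf1r and Tyrobp over at least 2 genes, with no Myh11 or Pdgfra. A barcode in more than 1 of these gates or the pericyte gate was left out of all of them. That took 34 barcodes from the pericyte gate, which kept 31, 20 from the endothelial, 25 from the fibroblast and 29 from the myeloid gate. No barcode could be in both a comparison gate and the smooth muscle gate, which needs at least 2 Myh11 UMIs. Deep cells had at least 5000 UMIs. Because a gate required Myh11 to be absent or low elsewhere, Myh11 and the other gate genes are descriptions.

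Counts were summed over the cells of a gate and scaled to CPM, with exact Poisson 95% intervals. Log2 ratios carry exact conditional intervals and shares exact Clopper-Pearson ones. A gene was called higher or lower at 2-fold with at least 50 UMIs over both groups. A group at 0 was set to 3 counts, per group of cells, for a bound. For shares of cells with a UMI, each cell was thinned to 1500 UMIs. Scrublet in scanpy 1.11.5 marked the highest-scoring 13.8% of 34441 barcodes, and doublets were removed only as an alternative. Scripts ran in Python 3.11.15 with numpy 2.4.6 and scipy 1.17.1 and were tested on simulated data.

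The cells and the gene lists were chosen with earlier results of these data known. Genes named are those of the lists, the reporter Gfp, the 10 genes outside the lists highest against all other barcodes (at least 100 UMIs), and the 10 highest and 10 lowest against the pericyte gate. The ranking against pericytes took only genes with a UMI in both groups. Genes named for uneven counts, for the Dcn barcode and for the Rgs5 split were chosen after their values were seen. The promoter table is from RefSeq, GRCm38.p6. Some listed genes are not reported here.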

Additional observations from a re-analysis of the deposited data

How the results depend on the processing

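With 1 library, no value has a replicate, cells are not replicates, and the intervals leave out differences between animals and libraries. No paired analysis was possible because the library analysed has no replicate and no test was made. Depth limits the rest, since 44 deep unmixed cells with 484625 UMIs leave a gene with 0 UMIs able to stand at up to 6.19 CPM. The number of cells was 245, and became 64 at 5000 UMIs or more, 101 with mitochondrial counts under 5%, 151 with at least 4 Myh11 UMIs, 75 with mixed cells left out, and 44 at 5000 UMIs or more and unmixed, the last setting having been chosen after seeing the data. In that order the contractile sum, 17137.5 CPM over the 245 cells, was 21201.1, 7920.6, 19449.2, 25051.3 and 27293.3 CPM, and it was 17488.4 CPM with predicted doublets removed and 13373.6 CPM as a mean of per-cell values. In the same order its log2 ratio to endothelial cells, 2.61, was 2.99, 1.47, 2.80, 3.16 and 3.36, then 2.20 as a per-cell mean and 2.77 with median-of-ratios size factors. Its log2 ratio to fibroblasts, 3.44, was 3.76, 2.34, 3.63, 3.99 and 4.13, then 3.47 without doublets, 3.07 as a per-cell mean and 3.29 with size factors. Those factors changed every log2 ratio by 0.16 against endothelial cells, -0.15 against fibroblasts and 0.20 against pericytes. Genes at least 2-fold higher or lower than in endothelial cells numbered 827 and 783, and became 4149 and 4092 with a filter of 1 UMI and 312 and 217 with 200 UMIs; the same filters gave 4056 and 7868, then 919 and 1309, in place of 1697 and 2133 against fibroblasts, and 7064 and 2545, then 197 and 69, in place of 857 and 304 against pericytes. With mitochondrial counts under 5% there were 447 genes higher than in endothelial cells, 232 higher and 98 lower than in pericytes, and at 5000 UMIs or more and unmixed 3288 lower than in fibroblasts. Without thinning, the median share for contractile genes was 44.29% in place of 27.14%. The log2 ratio of Lyz2 reversed to -1.30 against endothelial cells and -0.22 against fibroblasts with mixed cells left out, and to -3.09 and -1.18 when the cells also had 5000 UMIs or more. Of the called gene ratios followed, 29 of 31 and 28 of 30 kept their sign under those 2 settings, and 30 of 30 or 31 of 31 under each of the others. The genes followed include Myh11 and Acta2, which chose the smooth muscle cells, and Dcn, which helped choose the fibroblasts. Their signs against the cells concerned were set in part by the gates and are no check. When, for each listed gene, the 1 cell of the 44 with most of its UMIs was left out, a choice made after seeing the data, Casq2, Prrx1, Nr2f2, Itgb1, Mgp and Il6 were no longer called higher than in endothelial cells and Mfap4 no longer lower, and Pdlim7, Ednrb, Ptger3, Abcc9 and Ier2 were no longer called higher than in fibroblasts. Dcn, Tnc and Dusp1 were newly called lower than in endothelial cells. Genes newly called lower than in fibroblasts included Gata6, Calcrl, Trpm4 and Col4a1.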
